A study of Panicum sumatrense with 28 samples.

Results

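The comparison set germinating seed, taken 2 days after sowing, against the late panicle, the grain-bearing flower head taken 85 days after sowing, in the cereal little millet (Panicum sumatrense). It used 6 of the 28 RNA-seq libraries of the series, 3 of germinating seed and 3 of panicle late, chosen by their tissue labels. Both groups were untreated plants of genotype JK-8 raised in a growth chamber, and RNA was taken with either of a pair of extraction methods, without a record here of which library had which. The other 22 libraries came from radicle and plumule (3 days), young leaf and young root (13 days), crown meristem (26 days), vegetative stem (48 days), panicle early (61 days) and panicle mid (73 days). They entered the estimate of spread and served to show where else a transcript was found. Of the 101935 assembled transcripts in the table, 77548 reached 1 in 2 or more of the 28 libraries and were tested.

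A cereal grain holds an embryo and an endosperm, the tissue that stores starch and protein while the grain fills on the panicle. After sowing the grain takes up water, the embryo resumes growth, and enzymes break down the stores until the seedling can feed itself. The late panicle also holds parts that are not grain, such as glumes (the bracts around the grain) and branches, so the contrast covers more than the grain itself. In whole tissues, fewer cells of a kind and less RNA per cell cannot be told apart.

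The table gives assembly identifiers without gene names, so no transcript could be assigned to storage, starch breakdown or any other function, and the tissue labels could not be checked against known marker genes. Values are TPM, a length-corrected measure of relative abundance, multiplied by a scaling factor per library. They keep no read totals, so read depth is unknown. Summed values ran from 913503 to 1084498 in germinating seed and from 1067770 to 1228518 in panicle late. Nothing in the labels says that the replicates were separate plants, so a p-value here reflects only how far these samples scatter, and that scatter may be technical. The germinating seed libraries all carry identifiers of one series (here A) and the panicle late libraries all carry those of another (B), so library series and tissue cannot be told apart in this contrast. Germinating seed library 1 stood apart from libraries 2 and 3: 1370 transcripts lay at least 4-fold above both of the others on the log2(value + 1) scale and took 17.3% of its total, against 1.58% and 0.318% for the corresponding transcripts of libraries 2 and 3. In panicle late such transcripts took 0.196% to 0.624%. Results that rest on germinating seed library 1 are given with and without it.

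The late panicle put much of its RNA into a few transcripts that were close to 0 in germinating seed, whereas the germinating seed spread its RNA over many transcripts. In panicle late libraries 1, 2 and 3 the 10 most abundant transcripts took 34.4%, 35.6% and 26.8% of the total. In germinating seed libraries 1, 2 and 3 they took 14.8%, 4.33% and 4.40%. The libraries did not overlap, and the difference (seed minus panicle) of -24.4 percentage points had an exact two-sided permutation p of 0.1, the smallest that 3 against 3 can give. It took 131, 100 and 291 transcripts to make up 50% of the total in the panicle late libraries and 557, 1105 and 1072 in the germinating seed libraries (exact permutation p = 0.1). The number of transcripts at 1 or more was alike in size: 34343, 37205 and 36381 in germinating seed against 34282, 34381 and 33821 in panicle late. Those values overlapped (exact permutation p = 0.2).

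Across all transcripts, 7687 were higher in germinating seed and 6457 were lower, out of 77548 (limma on log2(value + 1), Benjamini-Hochberg adjusted p below 0.05 and a difference of at least 2-fold). These counts are 9.91% and 8.33% of the transcripts tested, 18.2% together. Of the transcripts that were higher, 5178 differed by under 4-fold, 2115 by 4-fold to 16-fold and 394 by 16-fold or more. Of those that were lower, 3821, 2110 and 526 fell in the same bands. The median log2 difference was 1.63 among the higher transcripts and -1.78 among the lower ones, on the log2(value + 1) scale, which understates differences of low transcripts. In 6669 of the 7687 and 5865 of the 6457 the values of the 3 germinating seed libraries did not overlap with those of the 3 panicle late libraries. Over all tested transcripts, called or not, 29.2% had libraries that did not overlap. Of the higher transcripts 1841 were listed at 0 in every panicle late library, and of the lower ones 1523 in every germinating seed library.

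The balance of higher and lower transcripts depended on how libraries were scaled. The lower share of the calls was 45.7% as deposited, 37.0% after scaling every library to the same sum, 51.5% after quantile normalization and 57.9% when each library was centred on its median, which shifted the median log2 difference of all transcripts by -0.19. Without germinating seed library 1, 8268 transcripts were higher and 5717 lower. A stricter test, limma's treat, which asks whether the difference exceeds 2-fold, called 2179 higher and 2159 lower (5.59% of the tested).

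**Figure D1:**
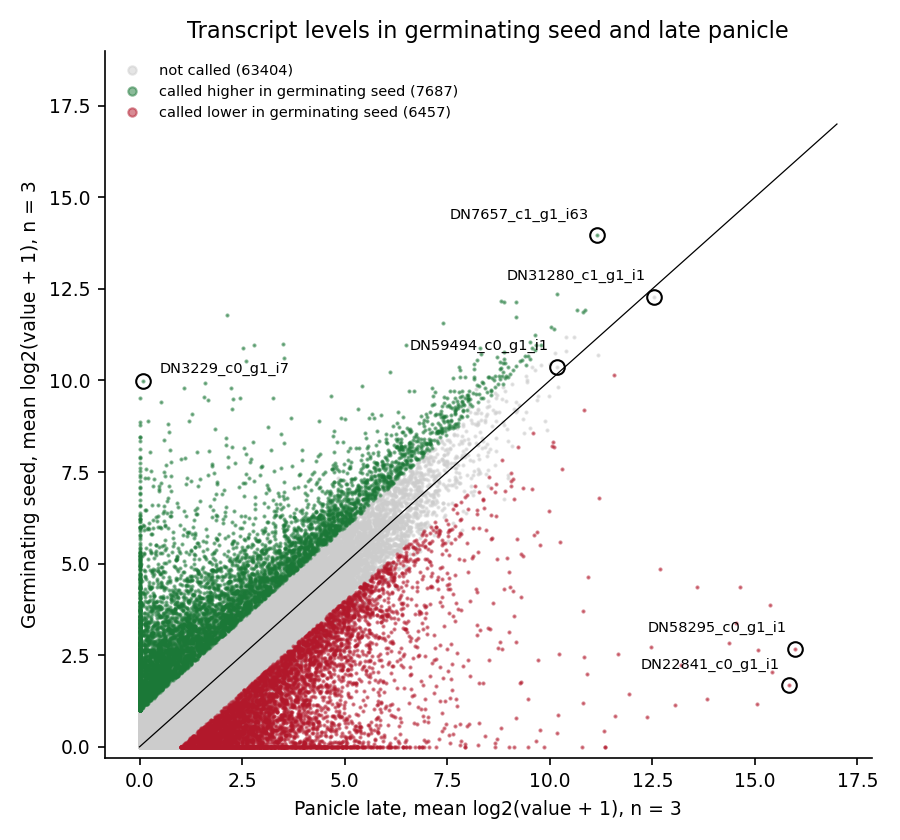
Mean log2(value + 1) of each of 77548 transcripts in panicle late (x axis) and germinating seed (y axis), n = 3 libraries each. Green points were called higher in germinating seed (7687), red points lower (6457) and grey points neither (63404). The diagonal marks equal means, and circles mark the 6 named transcripts, identifiers shortened. The red points at the far right include the 10 most abundant panicle late transcripts, none above a value of 53.0 in any germinating seed library.

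Calls were more frequent among abundant transcripts. By the mean over the 6 libraries, 3.2% of transcripts below 1 were called, 31.0% of those from 1 to 10, 35.9% of those from 10 to 100, 61.4% of those from 100 to 1000 and 83.6% of the 73 transcripts at 1000 or more. These percentages stand against 18.2% overall. The bands use the values of the contrast itself, and high values in 1 tissue alone can place a transcript in a high band. The percentages are therefore descriptions. In the lowest band the pseudocount limits how large a difference can appear. Among the 73 most abundant transcripts, 34 were higher and 27 lower in germinating seed. They took 14.8% of the germinating seed totals and 43.2% of the panicle late totals on average.

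The transcripts most abundant in the late panicle nearly vanished from germinating seed. All 11 whose panicle late mean reached 10000 were called lower in germinating seed, and so were 41 of the 58 whose mean reached 1000 (70.7%, against 8.33% of all tested transcripts). Of the 58, 7 were higher (12.1%, against 9.91% of all). The 10 most abundant ran from 11695 to 79892 over the panicle late libraries. In germinating seed the same 10 transcripts had medians of 14.5, 4.30 and 2.63 in libraries 1, 2 and 3, and none exceeded 53.0 in any of them. Together they made up 0.0172%, 0.00615% and 0.00321% of those totals. Their log2 differences ran from -14.14 to -10.29. All these transcripts were picked for high panicle late values, which also enter the calls, so the counts of 10, 11 and 58 are descriptions.

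TRINITY_DN58295_c0_g1_i1 was the most abundant transcript of the late panicle, at 56312, 79892 and 58653 in libraries 1, 2 and 3. It had 16.9, 4.70 and 1.57 in the germinating seed libraries. It ranked first in panicle late, with 5.67% of the total on average, and 14495th in germinating seed. The log2 difference was -13.29 (SE 1.68, limma adjusted p = 2.8e-06), and no germinating seed value came near a panicle late value.

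TRINITY_DN22841_c0_g1_i1 had the largest fall of all. Its panicle late values were 59162, 68451 and 47802, against 9.18, 2.24 and 0 in germinating seed libraries 1, 2 and 3. The log2 difference was -14.14 (SE 1.63, limma adjusted p = 7.9e-07). Its second rank in panicle late, with 5.10% of the total, placed it directly after TRINITY_DN58295_c0_g1_i1.

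These abundant transcripts appeared late and unevenly in the panicle. In the panicle early libraries the 10 transcripts had medians between 1.71 and 3.07. In panicle mid they had medians of 2622, 0.414 and 51.2 in libraries 1, 2 and 3, so the 3 libraries of that stage spanned most of the range between absence and abundance. They took 3.83% of the total in panicle mid library 1, 0.000734% in library 2 and 0.157% in library 3. TRINITY_DN22841_c0_g1_i1 followed the same order, with 2901, 0.640 and 48.6. Outside the panicle, low values came and went between libraries of the same tissue: in young leaf the medians were 0, 6.47 and 0, and in young root 22.4 and 10.8. In all 3 crown meristem libraries the median was 0. The medians in germinating seed (2.63 to 14.5) enclosed those in radicle libraries 2 and 3 (8.99 and 5.0), young leaf library 2 and young root library 2. That of young root library 1 (22.4) was higher. A value of 1 or more thus did not set germinating seed apart from these libraries for the 10 transcripts. Whether such low values are true transcripts of those tissues was not tested.

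**Figure D2:**
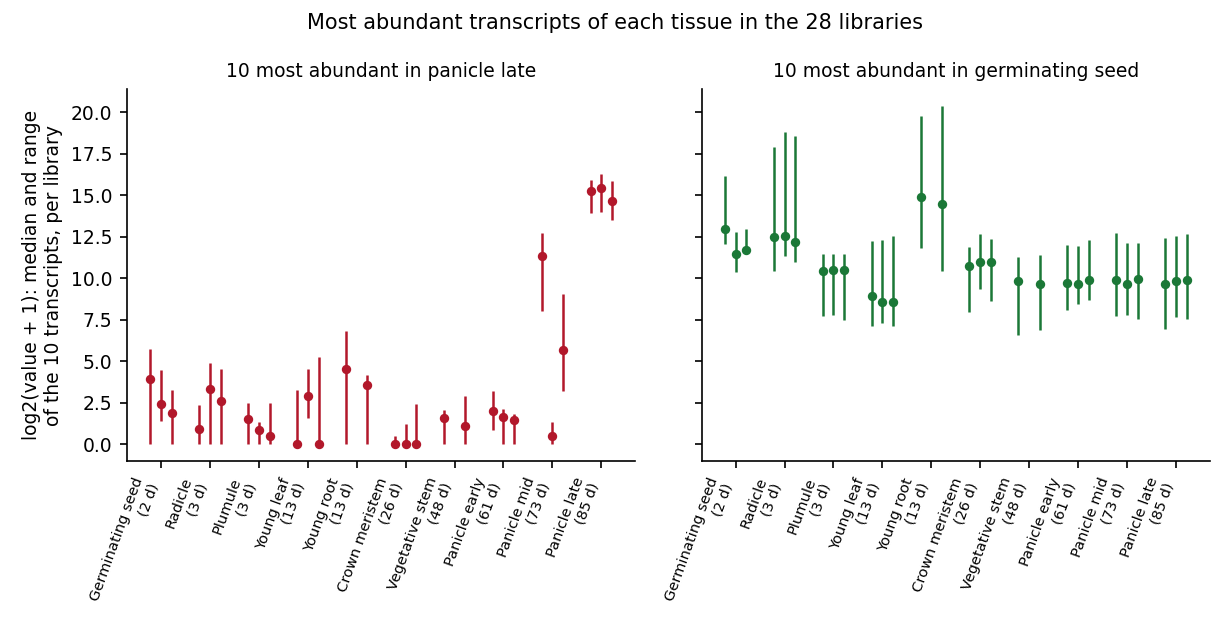
Median (dot) and range (line) of log2(value + 1) over the 10 most abundant transcripts of panicle late (left) and of germinating seed (right), with 1 dot per library and libraries of a tissue side by side. The panicle late transcripts are high in the 3 panicle late libraries, intermediate in panicle mid libraries 1 and 3 and low elsewhere. The germinating seed transcripts are present at 96.4 or more in all 28 libraries, and the median of germinating seed library 1 (8173) lies above those of the 3 radicle libraries (4723 to 5965).

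The most abundant transcripts of the germinating seed, in contrast, were found everywhere. Of its 10 most abundant, 9 were called higher than in panicle late and 1 was kept at its level. Of all tested transcripts 9.91% were called higher. The 10 were ranked by their mean over the germinating seed libraries, in which library 1 weighed most. Those values also enter the calls, so the counts of 9 and 1 are descriptions. Their medians were 8173, 2846 and 3395 in libraries 1, 2 and 3. None of them was below 96.4 in any of the 28 libraries, and in panicle late they ran from 124 to 6433. They took 14.7%, 3.5% and 4.31% of the germinating seed totals in libraries 1, 2 and 3 and 1.12%, 1.28% and 1.65% of the panicle late totals. In radicle they took 32.7% ± 7.14 (SD, n = 3) and in young root 56.2% ± 6.58 (SD, n = 2). In either tissue most of that share was TRINITY_DN7657_c1_g1_i63 alone. Of the 100 most abundant transcripts of each tissue, 33 were in both lists.

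TRINITY_DN7657_c1_g1_i63 was the most abundant of the transcripts that rose. Its germinating seed values were 73379, 7082 and 7909 in libraries 1, 2 and 3, and its panicle late values were 1466, 2656 and 3025. The groups did not overlap, but germinating seed library 1 lay far above the other compared libraries. The log2 difference was 2.82 (SE 0.55, limma adjusted p = 0.00045). Without germinating seed library 1 it was 1.72 (adjusted p = 0.00026), and with only the 6 compared libraries in the fit the adjusted p was 0.054. Over its 18 alternatives the adjusted p ran from 5.8e-11 to 0.054. In radicle libraries 1, 2 and 3 it had 251085, 461752 and 389854 of summed values of 1477082, 1564731 and 1565656. In young root libraries 1 and 2 it had 902966 and 1368110 of summed values of 2753439 and 3202138.

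TRINITY_DN3229_c0_g1_i7 had the largest rise, and its germinating seed values lay close together. They were 1136, 987 and 902, against 0.183, 0 and 0 in panicle late. The log2 difference was 9.89 (SE 0.44, limma adjusted p = 5.9e-13), and it ran from 7.64 to 12.79 over the alternatives. In the 8 other tissues the highest value in any library was 6.46, in young root library 1. In radicle and plumule, sampled 1 day after the germinating seed, its means were 0.596 ± 0.533 and 0.379 ± 0.328 (SD, n = 3). All 3 germinating seed libraries thus lay above all libraries of the other tissues, among which the next highest tissue mean was 5.03 ± 1.06, in young leaf (SD, n = 3).

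**Figure D3:**
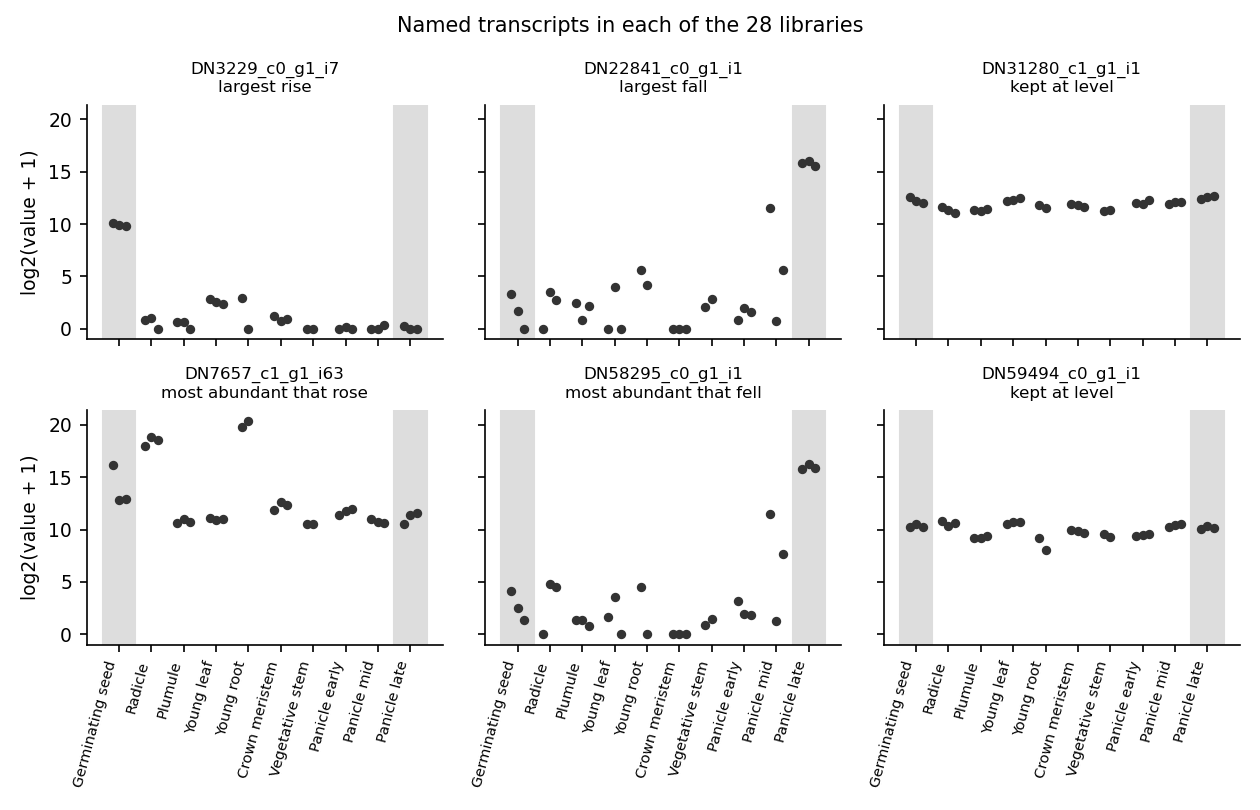
log2(value + 1) of the 6 named transcripts in all 28 libraries, with 1 dot per library and the germinating seed and panicle late columns shaded. TRINITY_DN3229_c0_g1_i7 is high only in the germinating seed libraries. TRINITY_DN22841_c0_g1_i1 and TRINITY_DN58295_c0_g1_i1 are high in panicle late and in part of panicle mid. TRINITY_DN7657_c1_g1_i63 is highest in young root and radicle, and the other 2 differ little between germinating seed and panicle late.

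Transcripts were next grouped by presence in every library. A transcript was counted as lost when it was at 1 or more in all 3 panicle late libraries and below 1 in all 3 germinating seed libraries, as gained in the reverse case, and as kept when it was at 1 or more in all 6. By this rule 2432 were lost, 2184 were gained and 21138 were kept. A further 22400 were below 1 in all 6 libraries, and 29394 were mixed. The groups were set by the values of the contrast itself, so their calls are given as a description: 2137 of the lost and 1811 of the gained transcripts were called. Lost and gained transcripts were mostly low, with median means of 4.12 in panicle late and 3.66 in germinating seed. In 70 of the lost and 69 of the gained transcripts some library reached 100. Leaving a library out relaxes the rule, and the gained count was then 2610 to 3938. The highest of these, 3938, came without germinating seed library 1.

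Lost transcripts took 3.47% ± 0.330 of the panicle late totals and gained transcripts 3.04% ± 0.193 of the germinating seed totals (SD, n = 3). Without germinating seed library 1 the lost share was 5.44%. Kept transcripts took 87.7% ± 1.63 of the germinating seed totals and 75.7% ± 3.81 of the panicle late totals. The low share of the lost group does not mean that little of the panicle's RNA was lost, because the most abundant panicle late transcripts were not in it: of its 10 most abundant, 6 were counted as kept and 4 as mixed, through values between 1 and 53.0 in germinating seed. Measured by the calls, the transcripts that were lower in germinating seed took 57.5%, 59.2% and 51.6% of the panicle late totals and 2.84%, 3.62% and 3.52% of the germinating seed totals. The transcripts that were higher took 58.5%, 49.5% and 50.6% of the germinating seed totals and 10.6%, 10.1% and 12.1% of the panicle late totals.

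**Figure D4:**
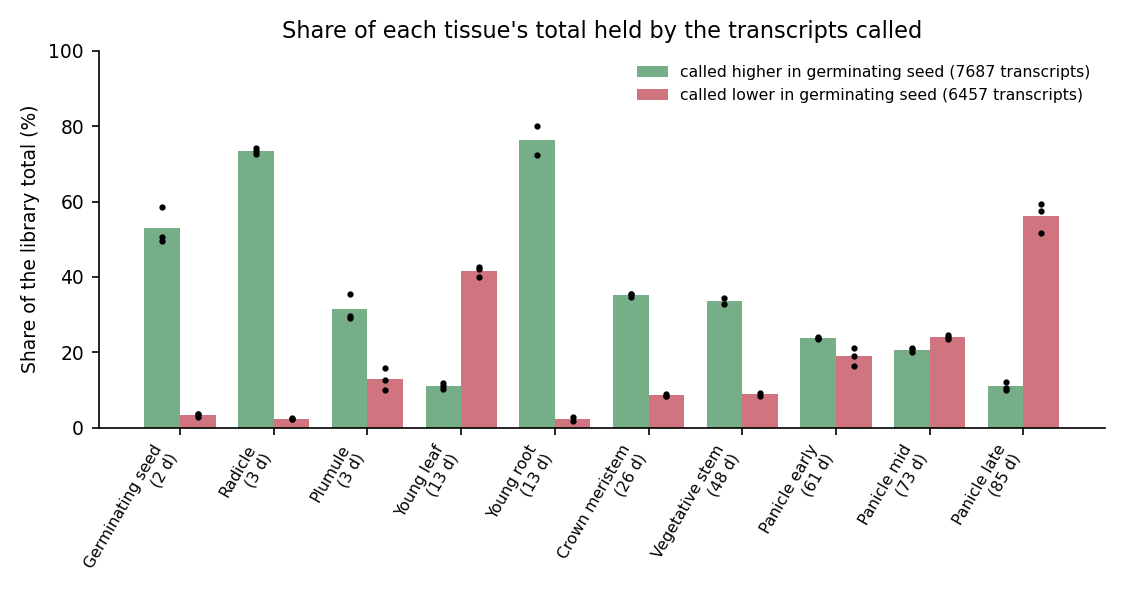
Share of the library total (y axis, %) held by the 7687 transcripts called higher in germinating seed (green) and the 6457 called lower (red), in each tissue. Bars are means over the libraries of a tissue and dots are single libraries. Besides the compared tissues, the green set is largest in young root (76.2%) and radicle (73.4%) and the red set in young leaf (41.5%). In young root the 10 most abundant germinating seed transcripts hold 56.2% of the total, and the green set without them holds 20.1% of that same total. Most of what these 10 held in young root was TRINITY_DN7657_c1_g1_i63 alone.

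The other tissues, which the calls did not compare, showed where the same transcripts were used. Those called lower in germinating seed took 24.0% ± 0.511 of the panicle mid totals and 41.5% ± 1.32 of the young leaf totals, but 2.33% ± 0.125 in radicle and 2.41% ± 0.760 in young root (SD, n = 2 for young root and 3 otherwise). Leaving out the 10 most abundant panicle late transcripts left the young leaf share at 41.5% and lowered the panicle late share from 56.1% to 23.9%. Transcripts that were lower in germinating seed than in panicle late thus also held a large share of the young leaf total. Those called higher took 73.4% ± 0.837 of the radicle totals and 76.2% ± 5.41 of the young root totals. Without the 10 most abundant germinating seed transcripts the set took 40.9% ± 6.32 and 20.1% ± 1.2 of the same full totals. It then took 32.6% in crown meristem, 32.3% in vegetative stem, 30.1% in plumule and 22.3% in panicle early. The 10 transcripts themselves held 32.7% of the radicle totals and 56.2% of the young root totals, but 3.07% in crown meristem. The totals still include them, so these remainders do not rank the tissues. In crown meristem and vegetative stem the higher set took 35.2% and 33.6%, and the lower set 8.62% and 8.86%.

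Transcripts that were at least 16-fold lower in germinating seed were mostly highest in panicle mid among the other tissues. Of the 518 such transcripts with a value in the other 8 tissues, 360 (69.5%) were highest in panicle mid and 93 (18.0%) in young leaf. Over all transcripts with a value there, panicle mid was highest for 12.9% and young leaf for 13.4%. The 526 transcripts were at 1 or more in 508 cases in panicle mid library 1, in 342 in library 2 and in 457 in library 3. In panicle early libraries 1, 2 and 3 the numbers were 242, 256 and 278. They took 44.7% ± 5.31 of the panicle late totals, 16.9% ± 0.614 of the young leaf totals and 8.28% ± 2.02 of the panicle mid totals, against 0.124% ± 0.0271 in germinating seed and 0.0805% ± 0.00397 in radicle.

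Transcripts that were at least 16-fold higher in germinating seed were mostly highest in radicle and young root. Of the 390 with a value in the other 8 tissues, 187 (47.9%) were highest in radicle and 104 (26.7%) in young root, against 12.4% and 10.6% over all transcripts. Of the 394, 291 (73.9%) were at 1 or more in every radicle library and 284 (72.1%) in every young root library, against 24.6% and 26.9% of all transcripts. Crown meristem had 229 (58.1%) and plumule 225 (57.1%), against 37.1% and 36.2%, so presence was not limited to roots. Of the kept transcripts, present in all 6 compared libraries, 64.1% were so in radicle and 70.6% in young root. In crown meristem and plumule the kept shares were 92.8% and 92.9%, above those of the 394. Panicle mid had 98 (24.9%) and young leaf 102 (25.9%), against 37.4% and 31.0%. They took 8.14% ± 1.40 of the germinating seed totals, 6.10% ± 0.949 of the radicle totals and 8.41% ± 0.0654 of the young root totals.

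The lost and gained groups differed in the same way. Of the 2432 lost transcripts, 1371 (56.4%) were at 1 or more in every panicle mid library and 867 (35.6%) in every panicle early library. In radicle 182 (7.48%) were, and in plumule 396 (16.3%). The corresponding shares of all 77548 transcripts were 37.4%, 37.1%, 24.6% and 36.2%. Those of the kept transcripts were 94.8%, 92.8%, 64.1% and 92.9%, each above the share of the lost. Of the lost transcripts, 1077 were present in panicle early or mid but in neither radicle nor plumule, and 65 the other way round. Over all transcripts the corresponding shares were 9.08% and 6.96%, against 44.3% and 2.67% of the lost. A further 828 (34.0%) were present in none of these 4 tissues, against 49.7% of all. Young leaf had 724 of the lost transcripts (29.8%), close to the 31.0% of all transcripts.

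Of the 2184 gained transcripts, 1163 (53.3%) were at 1 or more in every radicle library, 939 (43.0%) in every young root library and 831 in every plumule library. The shares over all transcripts were 24.6%, 26.9% and 36.2%. In panicle mid 253 (11.6%) were present and in young leaf 227 (10.4%). Present in radicle and absent by this rule from plumule were 718 (32.9%, against 5.03% of all), and present in plumule alone of the pair were 386 (17.7%, against 16.7%). Gained transcripts found in radicle or plumule but in neither earlier panicle stage numbered 989 (45.3%, against 6.96% of all), and the reverse 108 (4.95%, against 9.08%). Not present by this rule in any of the 8 other tissues were 344 of the gained (15.8%) and 683 of the lost (28.1%). The share was 42.7% of all transcripts, many of them below 1 in every compared library, but 1.01% of the kept. Kept transcripts were also present more often than the gained in radicle (64.1%), young root (70.6%) and plumule (92.9%). The kept rule asks for presence in both compared tissues, which favours wide presence, so neither baseline is like for like.

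**Figure D5:**
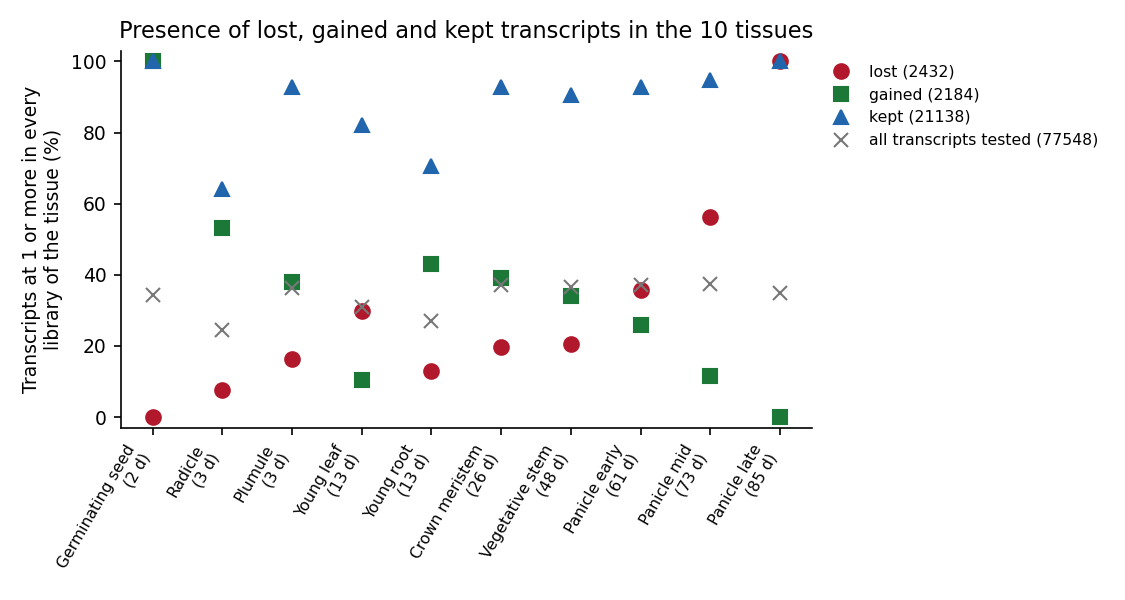
Share of lost, gained and kept transcripts, and of all transcripts tested, that were at 1 or more in every library of each tissue (y axis, %; sampling day in brackets). The values at germinating seed and panicle late follow from how the groups were defined. Lost transcripts are most frequent in panicle mid (56.4%) and gained transcripts in radicle (53.3%).

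Among the 21138 kept transcripts, presence did not mean an equal level. Of these, 3359 (15.9%) were called higher and 2303 (10.9%) lower in germinating seed, against 9.91% and 8.33% of all tested transcripts. The kept rule uses the values of the contrast itself, so nothing is read from these shares. For 6668 (31.5%) the 95% interval of the log2 difference lay within 2-fold in either direction, so that a larger change was outside the interval. The remaining 8808 (41.7%) were neither called nor bounded in this way. The 6668 transcripts kept at level took 15.4% ± 2.07 of the germinating seed totals and 13.0% ± 1.15 of the panicle late totals (SD, n = 3). Of the 6668, 4018 (60.3%) were at 1 or more in all 28 libraries, against 47.4% of the kept and 12.9% of all transcripts. Presence in both compared tissues was required of the 6668 but not of all transcripts. Their interval also drew on the spread within all tissues. The selection itself thus favours steady, widely present transcripts, and no wider use is read from these shares. With library series as a covariate, which rests on radicle and young root, 3468 transcripts were kept at level.

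Of the 90 transcripts whose germinating seed mean reached 1000, 3 (3.33%) were kept at level. Of the 58 whose panicle late mean reached 1000, 4 (6.9%) were. The share was 8.6% of all tested transcripts, many of which were not present in all 6 libraries, and 31.5% of the kept. Both lists were picked by high values in a compared tissue, which also set the interval, so these shares are descriptions. TRINITY_DN31280_c1_g1_i1 was the most abundant of the transcripts kept at level. It had 6055, 4814 and 4227 in germinating seed and 5483, 6045 and 6433 in panicle late, ranges that overlapped. The log2 difference was -0.26, with a 95% interval from -0.64 to 0.11. After quantile normalization the difference was 1.23 (limma adjusted p = 0.0066, against 0.0066 to 1 over its alternatives), so its level held for the deposited scaling and not for that one. With library series as a covariate it was -0.65, and its interval no longer lay within 2-fold. Over the other 8 tissues its means ran from 2581 in vegetative stem to 5260 in young leaf.

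TRINITY_DN59494_c0_g1_i1 was the second most abundant of the transcripts kept at level. Its values were 1232, 1502 and 1244 in germinating seed and 1082, 1267 and 1148 in panicle late. The log2 difference was 0.18, with a 95% interval from -0.23 to 0.60, and the interval stayed within 2-fold in all 17 alternatives for which it was computed. Its level elsewhere ran from 425 ± 221 in young root (SD, n = 2) to 1598 ± 89.4 in young leaf (SD, n = 3).

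A smaller number of transcripts marked germinating seed and late panicle together. In 240 transcripts all 6 libraries lay above each of the other 22 (0.309% of those tested). Of these, 78 (32.5%) were lower in germinating seed, against 8.33% of all tested transcripts and 10.9% of the kept. Another 46 (19.2%) were kept at level, against 8.6% of all and 31.5% of the kept. The 21 that were higher (8.75%) stand against 9.91% of all and 15.9% of the kept. The 240 were picked by high values in the libraries that also enter the calls, so these shares are descriptions.

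Transcripts from 1 cluster of the assembly, which can be related copies, mostly moved together where more than 1 was called. Little millet is a polyploid, in which copies of a gene from different subgenomes are common. Of 5727 clusters with 2 or more tested transcripts, 758 had at least 2 that were called. In 352 of these all called members were higher in germinating seed, in 236 all were lower, and in 170 some were higher and some lower. The same count for unrelated called transcripts was not made, so these numbers are descriptions. In 116 of the 170 the summed value of the cluster differed by less than 2-fold between the tissues, while 37 sums were at least 2-fold higher and 17 at least 2-fold lower. Near-identical copies share reads in such an assembly, so how a sum divides among members is uncertain.

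Whole profiles were compared by Spearman's rho across transcripts. Transcripts are not independent replicates, so rho is a description. The germinating seed libraries correlated with panicle late at a mean rho of 0.696 (0.671 to 0.721 over 9 pairs). They were closer to crown meristem (0.735) and vegetative stem (0.718), and less close to panicle mid (0.675), plumule (0.672), panicle early (0.655), radicle (0.638), young leaf (0.626) and young root (0.608). Ranges over library pairs overlapped between neighbours in this order. Within germinating seed rho ran from 0.772 to 0.821, and within panicle late from 0.853 to 0.873. Panicle late was closest to panicle mid, at 0.815.

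Library series differed within radicle (library 3 in B) and within young root (library 2 in B), and these values stand beside the contrast as the only measure of it. The median difference between series was 0 on the log2 scale in either tissue, for the transcripts called higher and for those called lower. Transcripts at 0 in both series have a difference of 0 and hold the median there, so it says little about a shift. Each of these tissues has 1 series B library, so series and replicate cannot be told apart. In radicle, series B was at least 2-fold higher for 4.74% and at least 2-fold lower for 3.65% of the transcripts called lower in germinating seed, against 6.36% and 7.97% of all transcripts. For those called higher in germinating seed the shares were 5.39% and 4.93%. In young root, series B was at least 2-fold higher for 7.53% and at least 2-fold lower for 11.8% of the transcripts called lower, against 9.43% and 11.4% of all. For those called higher the shares were 8.72% and 13.5%. Series B, that of the panicle late libraries, was thus 2-fold lower for a larger share of these than of all transcripts in young root. In radicle it was so for a smaller share (4.93% against 7.97%). All young root libraries held 61.0% of the transcripts called higher at 1 or more, but 26.9% of all, so the shares are not like for like. With the series as a covariate, 6049 transcripts were higher and 4807 lower in germinating seed, and 8267 of the 14144 calls remained in the same direction. In 50 of the 14144 the difference had the opposite sign and was not called. The part of the series in the other calls was not tested.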

How the data were processed

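RNA was measured by TruSeq RNA-seq in 28 libraries of 10 tissues, of which 6 are compared. Per the labels and the series design text, the authors assembled transcripts de novo with Trinity and estimated TPM with kallisto. The submitters' processing notes also name CASAVA and Trimmomatic, with no versions. The deposited signal values carry a TMM factor per library, per the table's name. Each assembled gene has 1 row.

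Differences are germinating seed minus panicle late, tested on log2(value + 1) with limma 3.58.1 (R 4.3.3), 1 mean per tissue over all libraries, with an intensity trend and Benjamini-Hochberg adjustment over 77548 transcripts. Calls need an adjusted p below 0.05 and a log2 difference of at least 1. The fit of the 6 libraries alone took transcripts at 1 or more in 2 of them. Other values came from Python 3.11.15 with pandas 2.3.3 and scipy 1.17.1. The test was tried on simulated data.

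Named transcripts are, among non-overlapping calls, the largest rise and fall and the most abundant in each direction, and the 2 most abundant kept at level. The contrast and groupings were chosen with earlier results of these data known. Same-numbered libraries of the compared tissues did not deviate together (correlations of -0.0422, 0.0154 and -0.0644), so replicate numbers pair nothing. Marker genes were not analysed here.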

Additional observations from a re-analysis of the deposited data

How the results depend on the processing

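Depth is unknown, series and tissue coincide, and library 1 of germinating seed stands apart. No transcript was called in opposite directions by the deposited scaling and any alternative fit, although 50 calls took the opposite sign, uncalled, with the series covariate. Total calls (14144; 7687 higher, 6457 lower) were 6832 (3717, 3115) with a pseudocount of 5 and 4338 (2179, 2159) with limma's treat. Leaving out single libraries gave 12855 to 13985 calls, 6958 to 8268 higher and 5717 to 6426 lower. The replicate block gave 14073 calls, 13940 of them shared. Transcripts kept at level (6668) were 4188 and 12220 with pseudocounts of 0.1 and 5, 3468 with the series covariate and 5605 to 6144 without single libraries. Kept transcripts (21138) were 11361 at a threshold of 5 and 21568 to 22159 without single libraries, lost 2814 to 3338 and gained 2610 to 3938. A group asked of fewer libraries is larger by construction.

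At thresholds of 0.5 and 5, lost transcripts took 2.84% and 11.8% of the panicle late totals and gained ones 2.37% and 5.48% of the germinating seed totals. Kept ones took 79.4% of the germinating seed totals at 5, and 81.7% and 53.1% of the panicle late totals at 0.5 and 5. Leaving out single libraries gave 3.47% to 5.44% (lost), 3.37% to 4.15% (gained), and 87.1% to 89.2% and 73.9% to 87.1% (kept, germinating seed and panicle late). The seed-panicle difference in transcripts at 1 or more ran from 1201 to 2632, and that in the 10 most abundant from -27.9 to -22.7 percentage points.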
